A study of Mus musculus with 16 samples.

Results

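Expression of 32 genes of homologous recombination, the Fanconi anaemia pathway and the DNA damage checkpoint was described in single cells of mouse mammary tumours in which Brca1 is deleted. The genes were taken from a list of repair genes and not by their measured values, and all 32 had counts among the 23467 genes seen in the tables used here. By role, 6 of them sense and trim DNA ends, 12 serve strand exchange with the template, 7 belong to the Fanconi pathway, 3 steer pathway choice or end joining and 4 are checkpoint kinases.

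The cells came from end-stage tumours of 2 models of triple-negative breast cancer, WB1P and WB1P-Myc, in untreated female mice on an FVB/n background. Drop-seq pairs each cell with a barcoded bead inside a droplet, and molecules are counted by unique molecular identifiers (UMIs) at the 3′ ends of transcripts. Live singlets were flow-sorted, and each model gave 1 cell suspension that was run as 4 droplet fractions. WB1P mice have the genotype WapCre;Brca1F/F;Trp53F/F, in which Cre, driven by the promoter of the milk gene Wap, deletes the floxed Brca1 and Trp53 alleles in mammary epithelium. WB1P-Myc mice share these alleles and also carry Col1a1 invCAG-Myc-IRES-Luc, a cassette that expresses Myc and luciferase once Cre has acted. Host cells such as macrophages and fibroblasts carry the floxed alleles but are not targets of the Wap promoter. Age was not given in the sources used here. A legend of the study names 2 mice per model, no fraction is assigned to a mouse, and each model was therefore treated as 1 sample. There is no replicate check of any difference between the models: intervals cover counting error only, the SD over fractions is technical, and the droplet session and the model cannot be told apart.

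Homologous recombination repairs broken chromosomes by copying the sister chromatid. The MRE11-RAD50-NBN complex detects the break, nucleases trim its ends, and BRCA1 with BARD1 and PALB2 brings BRCA2 to the single-stranded DNA, which then pairs with its template. Fanconi proteins remove crosslinks between DNA strands and protect stalled replication forks, and cells without BRCA1 depend more on other routes, in which PARP1 and POLQ take part. Many of these genes are transcribed mainly when cells replicate their DNA.

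The promoters of 4 members are shown because these genes stood at the ends of the order by cell-cycle stratum. That order, pooled over the models, is given further on. Only the 24 of 32 members matched in the set of RefSeq promoters used were considered. The 8 others, among them Rad54b, Exo1, Rad50, Nbn and Rbbp8, were not matched in it, so their promoters were not read. Each stretch holds 250 bases before and 50 bases from the transcription start on GRCm38.p6, written 5′ to 3′ on the gene's strand. Capitals mark the letters ATTGG, the reverse strand of CCAAT, the core of the site bound by the NF-Y factor. Brip1 lies at chr11:86201144-86201443 on the reverse strand and Rad51ap1 at chr6:126939538-126939837 on the reverse strand. Trp53bp1 lies at chr2:121271358-121271657 on the reverse strand and Rad52 at chr6:119902448-119902747 on the forward strand.
Brip1: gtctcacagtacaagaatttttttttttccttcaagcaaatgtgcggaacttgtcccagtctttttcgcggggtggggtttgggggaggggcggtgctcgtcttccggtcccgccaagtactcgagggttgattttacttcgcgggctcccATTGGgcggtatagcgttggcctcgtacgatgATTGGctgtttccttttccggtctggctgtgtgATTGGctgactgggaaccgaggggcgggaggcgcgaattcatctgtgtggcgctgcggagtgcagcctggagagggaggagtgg
Rad51ap1: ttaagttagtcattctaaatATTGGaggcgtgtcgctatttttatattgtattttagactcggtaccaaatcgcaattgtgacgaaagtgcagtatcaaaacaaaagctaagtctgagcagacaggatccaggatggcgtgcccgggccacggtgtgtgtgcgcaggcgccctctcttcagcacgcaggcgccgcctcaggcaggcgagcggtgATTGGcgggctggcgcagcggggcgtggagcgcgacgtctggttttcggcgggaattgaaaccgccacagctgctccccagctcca
Trp53bp1: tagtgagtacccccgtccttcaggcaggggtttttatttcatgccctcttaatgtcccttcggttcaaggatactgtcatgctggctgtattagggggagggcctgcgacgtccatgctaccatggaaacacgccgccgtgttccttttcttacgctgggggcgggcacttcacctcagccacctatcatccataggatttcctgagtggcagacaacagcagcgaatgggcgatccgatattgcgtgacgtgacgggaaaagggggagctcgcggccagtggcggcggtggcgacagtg
Rad52: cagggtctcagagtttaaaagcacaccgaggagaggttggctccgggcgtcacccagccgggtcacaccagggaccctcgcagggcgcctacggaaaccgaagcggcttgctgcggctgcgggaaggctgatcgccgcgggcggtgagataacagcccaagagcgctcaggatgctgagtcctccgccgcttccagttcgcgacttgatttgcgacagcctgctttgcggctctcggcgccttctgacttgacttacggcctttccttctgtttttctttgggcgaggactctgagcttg
Brip1 had 3 such matches, beginning 99, 67 and 34 bases before the start, Rad51ap1 had 2, and Trp53bp1 and Rad52 had none on either strand. CCAAT on either strand was found in 14 of 24 member promoters and in 37.9% of 27025 promoters of the same length. An E2F-type site, searched on both strands as TTTCCCGC, TTTCGCGC, TTTGCCGC or TTTGGCGC, was found in 4 member promoters, those of Brca2, Bard1, Rad51c and Chek2, and in 2.32% of all. The cell-cycle homology element TTTGAA was found in those of Bard1 and Polq and in 18.1% of all. These are matches of letters, not measured binding.

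Cells with 450 to 4000 genes and under 20% mitochondrial UMIs were kept, 1307 of WB1P and 3491 of WB1P-Myc, with 3347371 and 11943202 UMIs. A level is the sum of a gene's UMIs in the cells of a class, given as counts per 1e+06 UMIs of the same cells (CPM). WB1P fraction 1 stood apart: it gave 65 cells, against 394 to 426 in the other WB1P fractions, and its epithelial-like cells had a mitosis-list level of 6586 CPM against 2529 to 2907 CPM. The main results that rest on it are given with and without it. No 2 HiSeq libraries shared more than 1 of their 1000 barcodes. HiSeq and MiSeq tables of the same model and sample number, read here as the droplet fraction, shared 2 to 11. No doublet caller was run, and the ceiling of 4000 genes removed 40 and 134 barcodes. These held 27.8% of all UMIs in the WB1P HiSeq tables and 26.8% of those in the WB1P-Myc tables. In WB1P, 1605 barcodes with fewer than 200 genes, a proxy for free RNA, held the members at 389 CPM (322 to 465), and 6.42% of them had a member UMI at a median of 191 UMIs. Those barcodes held 0.0748 member UMIs each on average, against 1.27 in a kept WB1P cell. CPM is a share of UMIs, so a like CPM does not show that a cell's UMIs are free RNA.

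Clusters were named from marker genes. Epithelial-like cells numbered 675 in WB1P, where cluster 1 held 670, and 1400 in WB1P-Myc, where cluster 5 held 1391. The tumour epithelium of the models thus fell into separate clusters, and the epithelial markers summed to 8594 CPM in WB1P and 3504 CPM in WB1P-Myc. Cluster 5 was named from 6 leading markers, Krt19, Krt14, Krt17, Cdh1, Cldn7 and Wfdc18. None of these was among its 10 top genes, which included Bex1, H19, Igf2, Gm23935, Lars2 and the replication gene Top2a. Macrophage-like cells (377 and 699), fibroblast-like cells (218 and 274) and endothelial-like cells (37 and 71) were found in both models, and 1047 Schwann-like cells in WB1P-Myc only. At a finer resolution of 0.6, the WB1P-Myc epithelial-like cells lost much of their name: a cluster with 521 of that model kept it, and 2 clusters with WB1P-Myc cells went unnamed, 1 of 633 such cells with Krt14 as the single leading marker and 1 of 226 with the Schwann markers Sox10 and Cnp leading. The unnamed cluster with 633 WB1P-Myc cells was shallow, at a median of 1183 UMIs, and its top genes included Gm23935, Lars2, Kcnq1ot1 and Rif1. The cluster that kept the epithelial name had a median of 4517 UMIs. What sets the shallow cells apart was not tested. A cluster of 93 T or NK cell-like cells (16 and 77) also split off at this resolution, and the macrophage-like class shrank from 1076 to 981 cells. Schwann markers summed to 3934 CPM in the Schwann-like cells and to 665 CPM in the WB1P-Myc epithelial-like cells.

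Brca1 itself was at 11.2, 4.09, 7.34 and 4.46 CPM in the 4 WB1P fractions of epithelial-like cells, and the WB1P-Myc fractions had 9.34, 17.3, 11.3 and 5.84 CPM. Epithelial-like cells had Trp53 at 7.84 CPM (WB1P) and 14.1 CPM (WB1P-Myc), and macrophage-like cells had it at 37.8 and 56.6 CPM. Brca1 ran the other way, with 0 UMIs (WB1P) and 4.65 CPM (WB1P-Myc) in macrophage-like cells, 1.71 and 2.08 CPM in fibroblast-like cells and, in the Schwann-like class, 20.2 CPM. A 3′ tag lies outside the deleted exons and does not check the deletion. Myc was at 33.6, 68.1, 93.6 and 49.0 CPM in WB1P and at 198, 210, 191 and 204 CPM in WB1P-Myc epithelial-like cells, so the groups did not overlap. In the cassette luciferase follows Myc, so a 3′ tag may miss its transcript. The share of these Myc counts that came from the cassette was not tested.

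The members were most abundant in the WB1P-Myc epithelial-like cells, at 1016 CPM summed over the 32 genes (988 to 1044), and Schwann-like cells of the same tumours followed at 733 CPM (708 to 758). WB1P epithelial-like cells had 559 CPM (528 to 593). Macrophage-like cells had 450 CPM in WB1P and 566 CPM in WB1P-Myc, and fibroblast-like cells had the lowest sums, 332 and 417 CPM. In WB1P the intervals of the macrophage-like (401 to 504) and fibroblast-like sums (287 to 383) overlapped that of the barcodes with fewer than 200 genes. Neither was thus set apart from those barcodes in CPM, and the part of free RNA in either sum was not tested. WB1P-Myc had 3 such barcodes, too few for a level. The interval of WB1P macrophage-like cells did not reach that of the WB1P epithelial-like cells. Endothelial-like cells, with 30 and 94 member UMIs, stood at 495 and 538 CPM, with intervals too wide to be placed in the order. Rad50, which holds the broken ends together within the MRE11-RAD50-NBN complex, gave 22.1% of the member UMIs in WB1P and 22.8% in WB1P-Myc epithelial-like cells, so the sums lean on it.

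**Figure D1:**
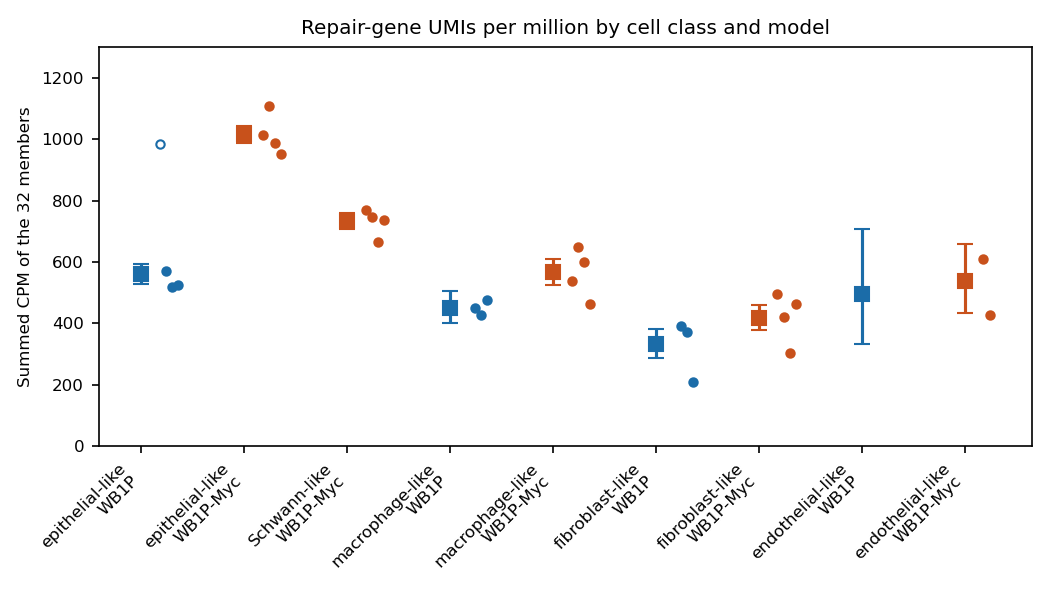
Summed CPM of the 32 repair genes (vertical axis) by cell class and model. Squares are pooled values with 95% counting intervals, small points are droplet fractions with at least 20 cells of the class, and the open point is WB1P fraction 1, at 986 CPM in epithelial-like cells, close to the WB1P-Myc points at 951 to 1107 CPM.

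Over all cells, the members summed to 974, 515, 468 and 465 CPM in the WB1P fractions whereas the WB1P-Myc fractions reached 828, 849, 757 and 775 CPM. The ratio of the pooled values, 804 over 497 CPM, was 0.69 on the log2 scale (0.62 to 0.77), and without WB1P fraction 1 it was 0.73. A ratio was given for members with at least 50 UMIs over both sides and called at a 2-fold difference. Of 27 such members, 10 were higher and 0 lower in WB1P-Myc, where 13.4% of all genes with as many UMIs were 2-fold higher and 10.1% lower. This count mixes the cell classes, whose shares differ between the models.

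In epithelial-like cells, where Brca1 is deleted by design, the same direction was seen within 1 class. The members summed to 986, 569, 518 and 526 CPM in the WB1P fractions (649.7 ± 225, mean ± SD) whereas the WB1P-Myc fractions had 1015, 1107, 989 and 951 CPM (1015 ± 66.3). All WB1P-Myc fractions but the lowest lay above WB1P fraction 1, and all 4 lay above the other WB1P fractions. The pooled ratio was 1.82-fold, 0.86 on the log2 scale (0.77 to 0.95), and 0.91 (0.82 to 1.01) without WB1P fraction 1. Of 22 members with at least 50 UMIs, 10 were 2-fold higher and 0 were 2-fold lower in WB1P-Myc, against 15.3% and 15.2% of all 9444 genes tested. The median member ratio was 0.88 and the median over all genes 0.01. With or without WB1P fraction 1 the count was 10, and in 8 of the 22 every WB1P-Myc fraction lay above every WB1P fraction, as for 19.5% of all genes. Other measures moved with the model: cells of the highest cycle stratum made up 39.6% in WB1P and 61.3% in WB1P-Myc, and Schwann markers stood at 162 and 665 CPM. The comparison within strata is given further on, and the part of the marker difference was not tested. With Schwann-like cells added to the WB1P-Myc side the ratio was 0.65, and at resolution 0.6 it was 0.77.

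Among the genes that sense and trim DNA ends, Blm, a helicase that unwinds ends and joint molecules, passed the call. It was at 22.4, 27.3, 20.2 and 17.8 CPM in WB1P and at 50.3, 49.3, 55.4 and 45.9 CPM in WB1P-Myc. The groups did not overlap, and the ratio was 1.19 (0.72 to 1.68). Rad50 was at 168, 124, 140 and 104 CPM in WB1P and at 224, 238, 234 and 229.6 CPM in WB1P-Myc. Its fractions did not overlap either, but at 0.90 (0.71 to 1.11) it stayed just under the call. The exonuclease gene Exo1 (0.79) and Mre11a, which encodes the nuclease of the complex (0.68), also stayed under it. The other 2 genes of the role had ratios near or below 0: Nbn, the third subunit of the complex, at 49.5 CPM in WB1P and 45.1 CPM in WB1P-Myc (−0.13), and Rbbp8, which encodes the resection factor CtIP, at 60.3 and 51.6 CPM (−0.22). Members of 1 complex thus differed in their ratios, Rad50 having an interval that lay wholly above that of Nbn (−0.48 to 0.22).

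Among the genes of strand exchange, Rad54l and Rad51d passed the call. Rad54l encodes a DNA translocase that works at the pairing with the template. It was at 0, 5.45, 1.84 and 2.97 CPM in WB1P, from 7 UMIs in all, and at 17.97, 20.5, 11.3 and 15.03 CPM in WB1P-Myc. The groups did not overlap, and the ratio of 2.25 had a wide interval (1.14 to 3.61). Rad51d, which acts in a complex with XRCC2, was at 0, 5.45, 5.51 and 4.46 CPM in WB1P and at 15.8, 17.3, 19.9 and 19.2 CPM in WB1P-Myc. Again the groups did not overlap, and the ratio was 1.87 (0.93 to 2.98). Brca2, the partner of PALB2 and a tumour suppressor, was at 0, 19.1, 20.2 and 8.91 CPM in WB1P and at 23.7, 36.1, 22.5 and 27.5 CPM in WB1P-Myc. Its fractions did not overlap, and its ratio of 0.85 (0.28 to 1.46) stayed under the call. Rad51ap1, which encodes a DNA-binding factor of strand pairing, was at 29.4 CPM in WB1P and 29.2 CPM in WB1P-Myc (−0.01, interval −0.45 to 0.45), and its WB1P fractions ran from 9.18 to 101 CPM. Without WB1P fraction 1 its ratio was 0.16 (−0.31 to 0.65). Rad54b, a relative of Rad54l, had a ratio of 0.46, and Rad52, an annealing factor, was at 13.7 CPM in WB1P and 9.67 CPM in WB1P-Myc (−0.50, interval −1.21 to 0.22).

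The other 6 genes of this role were too sparse for a ratio. Rad51b, which acts in a complex with RAD51C, had 12 UMIs in WB1P-Myc and 0 in WB1P, where 0 counts allow a level of up to 1.47 CPM at a floor of 3 counts. Rad51c (30 against 4 UMIs), Xrcc2 (8 against 2) and Xrcc3 (17 against 5) had few counts in both models. Palb2, the bridge to BRCA2, had 29 UMIs in WB1P-Myc and 8 in WB1P, and Bard1, the partner of BRCA1, had 29 and 17. The epithelial-like cells held 4962349 UMIs in all in WB1P-Myc and 2041161 in WB1P, so the Bard1 level was 8.33 CPM (4.85 to 13.3) in WB1P against 5.84 CPM (3.91 to 8.39) in WB1P-Myc, with overlapping intervals.

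Fanconi members summed to 36.3 CPM in WB1P and 85.2 CPM in WB1P-Myc epithelial-like cells. Brip1, a helicase that binds BRCA1 and is also called FANCJ, was at 11.2, 16.4, 1.84 and 7.43 CPM in WB1P and at 30.2, 32.9, 32.9 and 26.7 CPM in WB1P-Myc. The groups did not overlap, and the ratio was 1.72 (1.03 to 2.49). Without WB1P fraction 2, the highest of that model, it was 2.52. Fancm, which anchors the Fanconi core complex on DNA, was at 8.82 and 20.2 CPM (1.19, interval 0.46 to 2.00), and its fractions met at 14.9 CPM in WB1P and 14.2 CPM in WB1P-Myc. Its ratio was 0.91 without WB1P fraction 2, 0.93 without WB1P-Myc fraction 2 and 1.78 without WB1P fraction 4. Fancc of the core complex (0.72) and Fancd2, which is ubiquitinated when the pathway is active (0.69), stayed under the call, and Fancd2 reached 2.25 when each cell was weighted equally. Fanca, Fancb and Fanci had 5, 3 and 3 UMIs in WB1P and 19, 22 and 27 in WB1P-Myc.

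Among the genes of pathway choice and end joining, Parp1, whose product marks DNA breaks with poly(ADP-ribose), was at 224, 74.9, 82.6 and 93.6 CPM in WB1P and at 214, 239, 199 and 203 CPM in WB1P-Myc. WB1P fraction 1 fell within the range of WB1P-Myc, and the other 3 lay far below it. The ratio was 1.26 (1.03 to 1.49), 1.36 without that fraction, and 0.92, under the call, when each cell was weighted equally. Trp53bp1, which holds back resection, was at 33.6, 16.4, 7.34 and 8.91 CPM in WB1P and at 25.2, 23.8, 17.3 and 20.04 CPM in WB1P-Myc (0.83, interval 0.19 to 1.52), with overlap through fraction 1. Without WB1P fraction 1 the Trp53bp1 ratio was 0.95 (0.28 to 1.68). Polq, the polymerase of theta-mediated end joining, had 2 UMIs in WB1P and 36 in WB1P-Myc epithelial-like cells. Over all cells it had 2 and 63 UMIs, a ratio of 3.14 whose interval ran from 1.23 to 6.22.

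All 4 checkpoint kinases passed the call, Chek2 at its edge. Atr, which encodes the kinase of stalled replication forks, was at 11.2, 6.81, 3.67 and 8.91 CPM in WB1P and at 29.5, 37.0, 31.1 and 45.1 CPM in WB1P-Myc. The groups did not overlap, and its ratio was 2.37 (1.59 to 3.27). The intervals of Rad54l, Rad51d and Brip1 overlapped it, and without WB1P fraction 2 Rad54l (2.83) and Brip1 (2.52) stood above it (2.36). Atm, the kinase of broken ends, was at 33.6, 13.6, 7.34 and 8.91 CPM in WB1P and at 35.2, 44.4, 33.7 and 32.6 CPM in WB1P-Myc, a ratio of 1.69 (1.06 to 2.39) that was 1.83 without WB1P fraction 1. Chek1, the effector of Atr, was at 11.8 and 28.0 CPM (1.25, interval 0.62 to 1.94), and the effector of Atm, Chek2, at 7.84 and 15.7 CPM (1.00, interval 0.22 to 1.88). For Atm and Chek1, WB1P fraction 1 stood at 33.6 CPM and overlapped the WB1P-Myc fractions. Without that fraction the Chek1 ratio was 1.38 (0.71 to 2.12). Chek1 fell under the call without WB1P fraction 3 (0.93), and Chek2 without WB1P fraction 2 (0.66) or WB1P-Myc fraction 1 or 4 (0.97 each). Exons of 15 members overlap another annotated gene, on the same strand for Rad54b, Parp1 and Atr. The share of reads from such overlaps was not tested, and the use of strand in counting was not given in the sources used here.

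**Figure D2:**
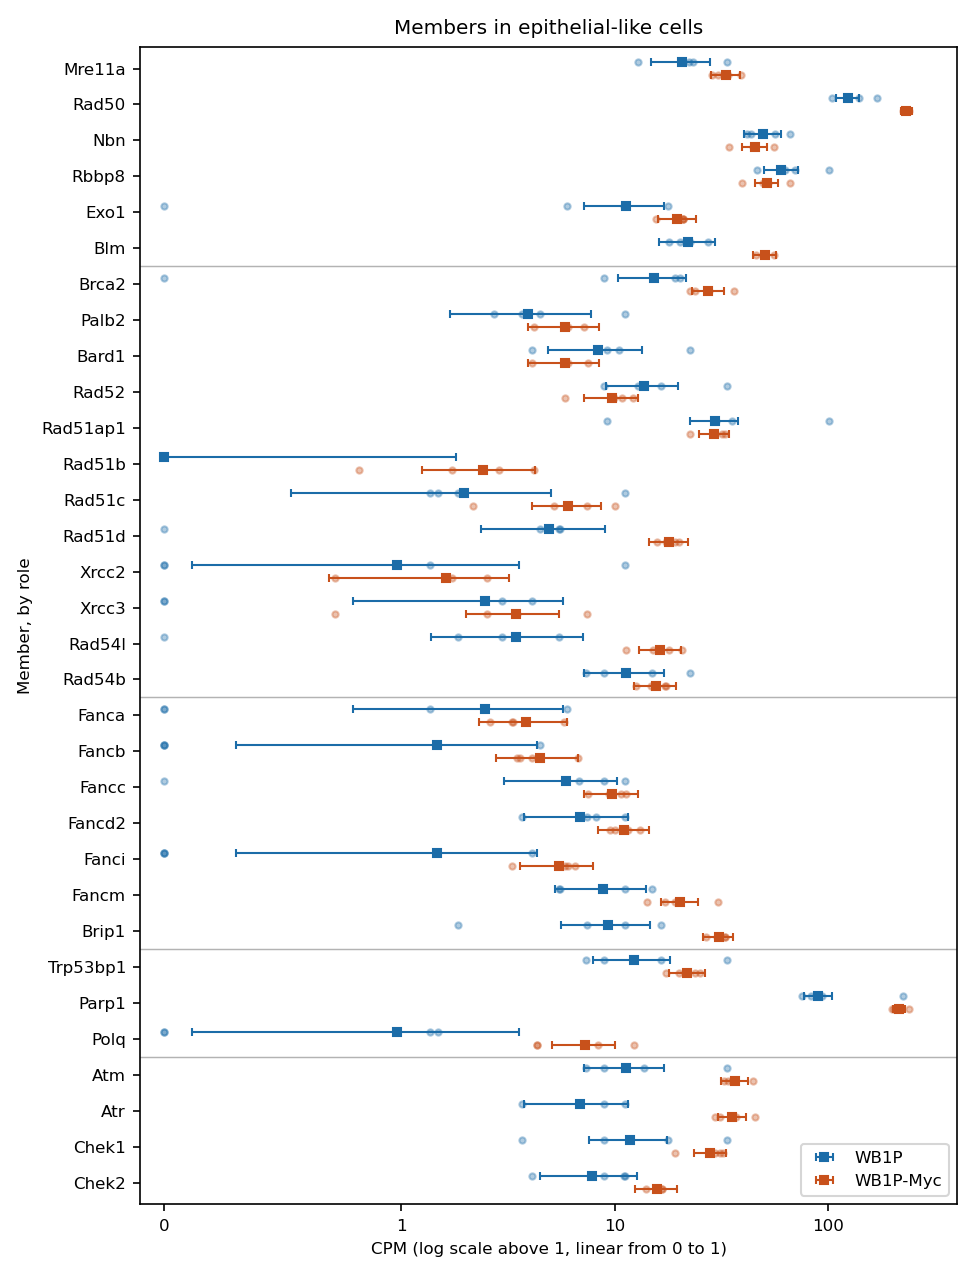
CPM of each member in epithelial-like cells (horizontal axis, logarithmic above 1 and linear from 0 to 1), ordered by role from end sensing at the top to checkpoint kinases at the bottom. Squares are pooled values with 95% counting intervals and pale points are droplet fractions. Atr, Brip1, Rad51d and Rad54l show WB1P-Myc apart from WB1P, while Nbn, Rbbp8 and Rad51ap1 coincide.

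**Figure D3:**
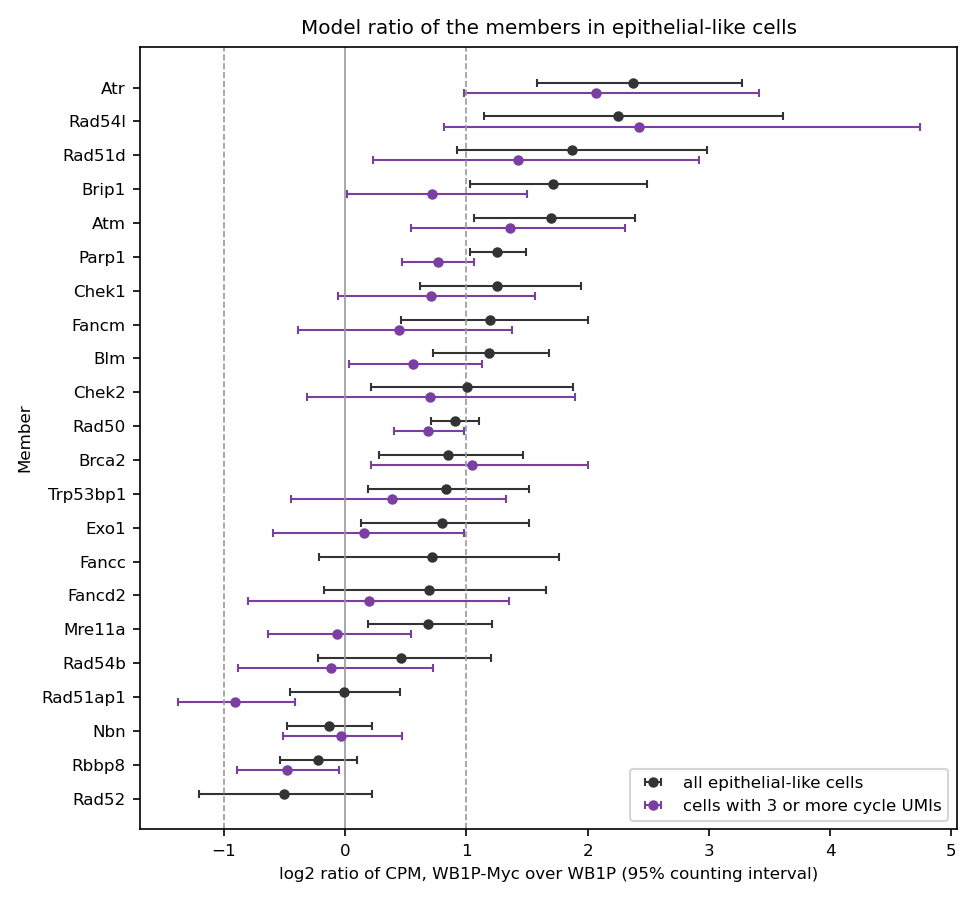
Log2 ratio of CPM, WB1P-Myc over WB1P (horizontal axis), for the 22 members with at least 50 UMIs, in all epithelial-like cells (black) and in those with 3 or more cycle UMIs (purple). Bars are 95% counting intervals and dashed lines mark 2-fold. Rad51ap1 moves from −0.01 to −0.91 between the sets, and Atr stays above 2-fold in both.

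With the main settings, the summed members differed less between the models in the host cells than in epithelial-like cells. Over the alternative settings listed at the end, the fibroblast-like ratio (0.12 to 0.75) and the epithelial-like ratio (0.65 to 0.96) had overlapping ranges. In macrophage-like cells the members summed to 429 to 475 CPM in WB1P fractions 2 to 4, with 0 UMIs in the 2 cells of fraction 1, and to 539, 649, 601 and 463 CPM in WB1P-Myc. The ranges overlapped, and the pooled ratio was 0.33 (0.13 to 0.53), with a median over all genes of 0.13. At resolution 0.6, where the T or NK cell-like cells stood apart, it was 0.32. Of 5 members with enough UMIs 0 were 2-fold higher, against 5.39% of all genes. In fibroblast-like cells the pooled ratio was also 0.33 (0.08 to 0.58), and 0 of 3 members were 2-fold higher, against 2.69%. The fibroblast-like fractions overlapped, at 674 (2 cells), 392, 371 and 207 CPM in WB1P and at 497, 422, 304 and 462 CPM in WB1P-Myc. At a minimum of 10 UMIs the fibroblast-like count was 9 of 14, against 9.53% of all genes, and the macrophage-like count 2 of 18, against 13.1%. Atr went the other way in macrophage-like cells, at 55.4, 25.2 and 86.8 CPM in WB1P fractions 2 to 4 and at 18.1, 29.5, 67.8 and 20.4 CPM in WB1P-Myc. Those ranges overlapped, and the ratio was −0.71 (−1.38 to −0.04). The difference between the ratios of epithelial-like and host cells was not tested, since each model is 1 sample.

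Within WB1P, epithelial-like cells exceeded macrophage-like cells by 0.31 in the summed members (0.13 to 0.50), close to the median of 0.38 over all genes. Of 8 members with enough UMIs, 2 were 2-fold higher in the epithelial-like cells, Nbn (1.33) and Rad51ap1 (1.11), against 27.0% of all genes. Rad51ap1 was under the call without fraction 1 (0.94) or fraction 4 (0.81). Atr was the 1 member 2-fold lower there, against 13.7%, at 6.86 CPM from 14 UMIs in epithelial-like and 55.9 CPM from 37 UMIs in macrophage-like cells, a ratio of −3.03 (−4.03 to −2.11). With each fraction left out the ratio lay between −3.19 and −2.70, on fewer than 50 UMIs without fraction 2, 3 or 4, and in the MiSeq tables it was 0.34. Within WB1P-Myc the summed ratio was 0.84, above the median of 0.26 over all genes, and 14 of 22 members were 2-fold higher in epithelial-like cells, against 28.2%. Exo1 had the highest ratio (97 against 3 UMIs, 3.07, interval 1.48 to 5.37), followed by Chek1 (2.17) and Atm (1.86), and Rbbp8 had the lowest (−0.30). With 1 fraction left out Exo1 ranged from 2.67 to 4.21, the latter without fraction 3. Brip1 reached 2.83 without fraction 2, within that range, so the top place is not fixed. With 1 fraction left out, 4 of the 14 lost the call: Rad52 (0.52 without fraction 3, 0.85 without 4), Fancc (0.57 without fraction 2, 0.83 without 3), Trp53bp1 (0.97 without fraction 1, 0.87 without 2) and Parp1 (0.97 without fraction 3). Without fraction 1 Fancc was at 2.23 and Rad51ap1 (1.33) at 2.17. Without fraction 2 Rad52 was at 2.19, Fancd2 (1.52) at 2.31 and Fancm (1.38) at 2.00. Atr, at 35.5 and 34.1 CPM, did not separate these classes (0.06, interval −0.43 to 0.57).

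Schwann-like cells had fewer member UMIs than the epithelial-like cells of the same tumours, 769, 747, 664 and 735 CPM in the 4 fractions against 951 to 1107 CPM, without overlap. The pooled ratio was −0.47 (−0.53 to −0.41). Of 25 members with enough UMIs, 5 were 2-fold lower in Schwann-like cells, Brip1 (−1.29), Chek2 (−1.26), Atm (−1.19), Fancd2 (−1.07) and Rad54l (−1.05), where 7.79% of all genes were. Fancc was the 1 member 2-fold higher, where 11.0% of all genes were. It was at 18.9, 17.8, 26.0 and 25.5 CPM in Schwann-like cells and at 9.34, 10.7, 11.2 and 7.51 CPM in epithelial-like cells, a ratio of 1.17 (0.66 to 1.70) without overlap. Without WB1P-Myc fraction 4 it was 0.99, under the call, as were Fancd2 without fraction 3 (−0.90) and Rad54l without fraction 1 (−0.94) or 2 (−0.87). Rad51d (−0.10), Nbn (−0.18), Rad54b (0.03) and Parp1 (−0.22) were close to even between the classes. The share of cells in the highest cycle stratum, described next, also differed, at 25.7% of Schwann-like and 61.3% of WB1P-Myc epithelial-like cells. Within strata the Schwann-like cells were lower as well, by −0.44 (−0.66 to −0.22) in cells without cycle UMIs, −0.41 (−0.53 to −0.29) with 1 to 2 and −0.12 (−0.21 to −0.04) with 3 or more.

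**Figure D4:**
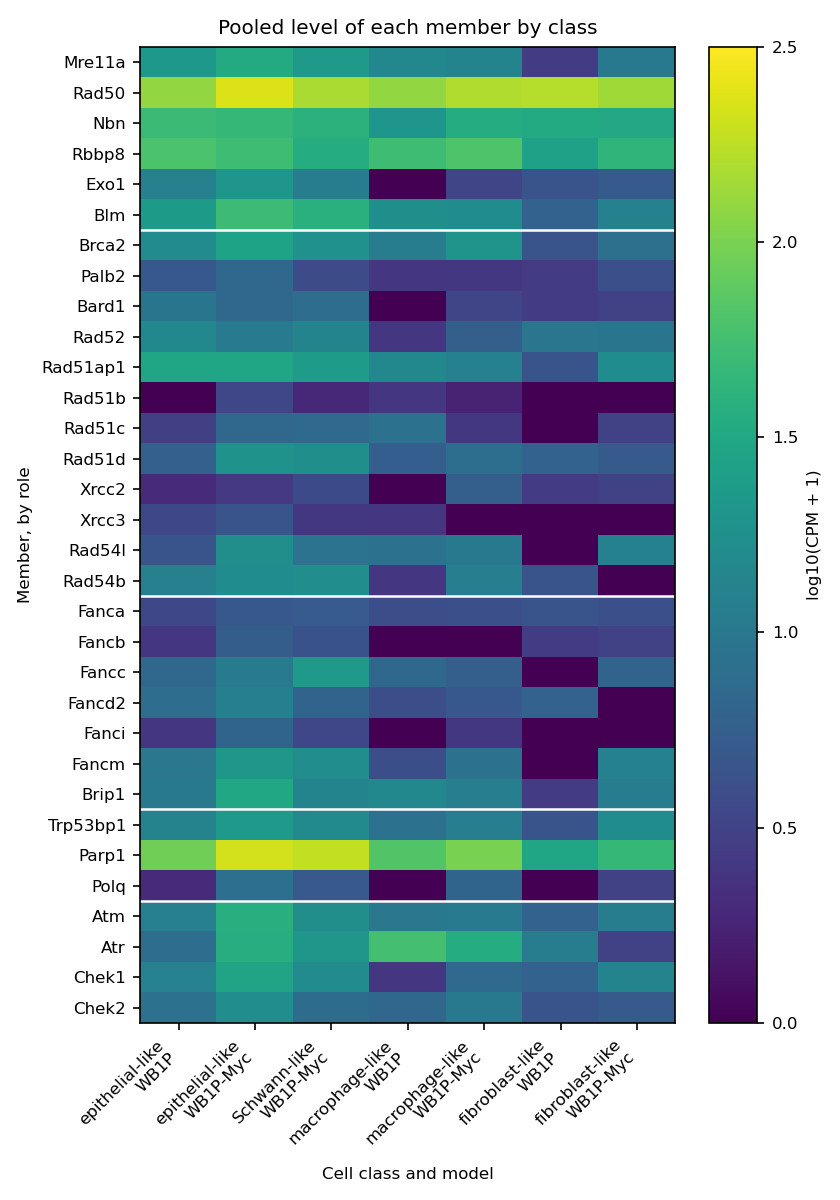
Pooled level of each member, as log10 of CPM + 1 (colour), by role (rows) in 7 sets of cells (columns). Rad50 and Parp1 are bright in every column, Rad51b, Xrcc2 and Xrcc3 are dark, and Atr is brighter in WB1P macrophage-like cells (55.9 CPM) than in WB1P epithelial-like cells (6.86 CPM).

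Cells were then divided by the cycle. Each cell was thinned to 600 UMIs, and its UMIs from 36 replication genes and 40 mitosis genes, none of them a member, were counted as cycle UMIs. In WB1P, 207 epithelial-like cells had 0, 201 had 1 to 2 and 267 (39.6%) had 3 or more. In WB1P-Myc these strata held 127, 414 and 858 cells (61.3% with 3 or more). Member levels used all UMIs of a cell.

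Member levels were higher in the cells with 3 or more cycle UMIs in both models. In WB1P they summed to 1036, 848, 726 and 783 CPM in the 4 fractions of that stratum and to 1014, 359, 449.9 and 332 CPM in the fractions of cells without cycle UMIs, of which fraction 1 had 7 cells. Leaving fraction 1 aside, the strata did not overlap. The pooled ratio, 813 over 381 CPM, was 1.09 (0.88 to 1.31), and 1.08 without fraction 1. The interval of the cells without cycle UMIs (334 to 433) overlapped that of the WB1P barcodes with fewer than 200 genes (322 to 465). The base of this ratio was thus not set apart from those barcodes in CPM, and the part of free RNA in it was not tested. In WB1P-Myc the values were 1120, 1205, 1055 and 1042 CPM against 727, 651, 894 and 470.3 CPM, without overlap, a ratio of 0.68 (0.49 to 0.88). The direction was the same in Schwann-like cells (1019 over 507 CPM, 1.01), in macrophage-like cells of both models (827 over 444 CPM, 0.90) and in fibroblast-like cells (704 over 303 CPM, 1.21).

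Single members differed far more than the sum. Of 5 WB1P members with enough UMIs, 2 were 2-fold higher in the cycling stratum, Rad51ap1 and Parp1, against 6.54% of all genes. Rad51ap1 had 54 UMIs in 267 cycling cells and 3 in 207 cells without cycle UMIs, a ratio of 3.76 (2.14 to 6.09). Parp1 was at 132 against 52.9 CPM (1.32, interval 0.74 to 1.93). Without fraction 1, Rad51ap1 was at 3.62 and without fraction 2 at 2.70, in both cases on fewer than the 50 UMIs that a call needs. Parp1 was at 1.22 without fraction 1, at 0.99 without fraction 2 or 3 and at 2.37 without fraction 4. In WB1P-Myc, 10 of 19 members were 2-fold higher, against 11.1%, among them Brip1 (128 against 1 UMIs, 3.65, interval 1.15 to 8.97), Rad51ap1 (118 against 1, 3.54, interval 1.03 to 8.85) and Exo1 (82 against 1, 3.01, interval 0.49 to 8.33). Rad54b had 68 UMIs against 0, at least 2.23-fold higher with a floor of 3 counts over the stratum. The others were Chek2 (60 against 1 UMIs, 2.56), Nbn (180 against 5, 1.82) and Blm (205 against 6, 1.75). Rad54l (66 against 2, 1.70), Brca2 (110 against 4, 1.44) and Chek1 (107 against 5, 1.07) completed the list. All 10 thus rest on few UMIs in the cells without cycle UMIs. Chek1 was under the call without fraction 1 (0.81) or 4 (0.85). Without fraction 3 Blm was at 2.36 and Brca2 at 2.14, and without fraction 1 Nbn was at 2.53 and Rad54l at 1.11 (2.40 without fraction 4). In Schwann-like cells 5 of 9 members were 2-fold higher, against 6.10%: Rad51ap1 (2.47), Brca2 (2.14), Rad54b (2.00), Blm (1.30) and Parp1 (1.07).

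Pooled over both models, 16 of 21 members were 2-fold higher in the cycling stratum, against 11.6% of all genes. This pool mixes the models, since 858 of its 1125 cycling cells but 127 of its 334 cells without cycle UMIs came from WB1P-Myc. Atr (0.40 in WB1P, 0.56 in WB1P-Myc) and Atm (0.71 and 0.75) were 2-fold higher in the pool (1.27 and 1.28) and in neither model, so their calls rest on the mix. Rad51d, Mre11a, Fancm and Fancd2 were also called in the pool and in neither model. In WB1P-Myc, Rad51d (66 against 6 UMIs), Mre11a (125 against 9) and Fancm (78 against 4) were under 2-fold in CPM. Fancd2 (47 against 2) fell short of the 50 UMIs that a call needs. In WB1P, Rad51d, Mre11a, Fancm and Fancd2 all had fewer than 50 UMIs, so a call could not be made there. Brip1 headed the order with 147 UMIs against 1 (5.06, interval 2.56 to 10.37), ahead of Rad54b with 86 against 1 (4.29, interval 1.77 to 9.61), Exo1 (3.51) and Rad51ap1 (3.29). The intervals of these 4 overlapped, so their order is not fixed. At the other end were Rad52 (−0.39), Rbbp8 (0.37), Rad50 (0.39), Nbn (0.39) and Trp53bp1 (0.64). Within the models Rad52 was at −0.67 (10 against 12 UMIs, interval −2.04 to 0.67) in WB1P and at 0.86 (37 against 2 UMIs, interval −1.09 to 3.96) in WB1P-Myc, so neither its sign nor its last place is fixed. The promoters of Brip1 and Rad51ap1 shown above hold CCAAT on the reverse strand and those of Trp53bp1 and Rad52 do not. These 4 were picked from the ends of this order. Among all members with a ratio and a promoter, 8 with CCAAT had ratios of 1.28 to 5.06. The 6 without it had −0.39 to 2.00, so the ranges overlapped, and a link was not tested.

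Within WB1P, Brip1 was counted only in the cycling stratum, with 0, 0 and 19 UMIs over the strata of 0, 1 to 2 and 3 or more cycle UMIs, and with 1, 23 and 128 in WB1P-Myc. Rad50 was nearly level, at 114, 108 and 141 CPM in WB1P and 249.1, 236 and 228 CPM in WB1P-Myc. At each stratum Rad50 was higher in WB1P-Myc, with intervals that did not meet. Nbn was at 54.5, 37.3 and 54.4 CPM over the strata of WB1P, with overlapping intervals, and in WB1P-Myc its outer strata held 5 and 180 UMIs, a ratio of 1.82.

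**Figure D5:**
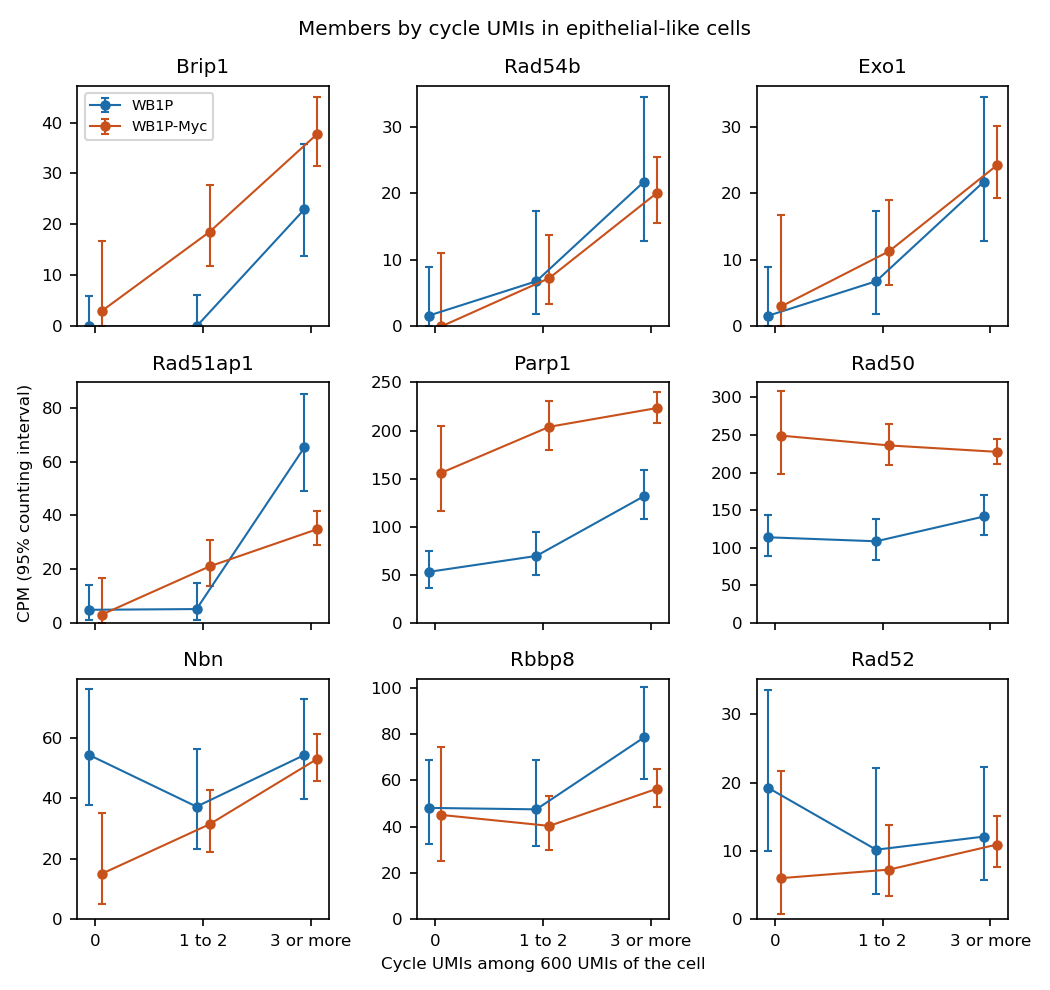
CPM of 9 members (vertical axes) in epithelial-like cells by the number of cycle UMIs among 600 UMIs of the cell (horizontal axis), in WB1P (blue) and WB1P-Myc (orange), with 95% counting intervals. Brip1, Rad54b, Exo1 and Rad51ap1 climb from near 0, whereas Rad50 is nearly flat and higher in WB1P-Myc at every stratum.

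Since WB1P-Myc had more cells in the cycling stratum, the models were compared again within strata. The strata did not fully even out the cycle lists. In cells without cycle UMIs the mitosis list was at 609 CPM in WB1P-Myc against 391 CPM in WB1P (0.64), and the replication list had a ratio of 0.27. In cells with 3 or more these ratios were 0.10 and −0.11. The part of this remaining difference in the member ratios was not tested. Among cells with 3 or more cycle UMIs, the members summed to 813 CPM in WB1P and reached 1108 CPM in WB1P-Myc, which is a ratio of 0.45 (0.33 to 0.57), and 0.49 without WB1P fraction 1. The 4 WB1P-Myc fractions (1042 to 1205 CPM) lay above all WB1P fractions (726 to 1036 CPM). Among cells with 1 to 2 cycle UMIs the members were at 393 CPM in WB1P against 852 CPM in WB1P-Myc (log2 interval 0.91 to 1.33). Among cells without cycle UMIs the ratio was 0.86, at 690 against 381 CPM and with an interval that overlapped the last, with Rad50 (1.13) and Parp1 (1.56) the members with enough UMIs. The WB1P intervals of both strata (344 to 447 and 334 to 433) overlapped that of the WB1P barcodes with fewer than 200 genes (322 to 465). Neither WB1P level was thus set apart from those barcodes in CPM, and the part of free RNA was not tested. WB1P-Myc had too few such barcodes for a level. Of 20 members in the cycling stratum, 5 were 2-fold higher in WB1P-Myc, against 14.6% of all genes: Rad54l (2.43), Atr (2.07), Rad51d (1.43), Atm (1.36) and Brca2 (1.05). Without WB1P fraction 1, Brca2 (0.91) dropped out. Brip1 (0.72), Chek1 (0.71), Chek2 (0.70), Blm (0.56), Fancm (0.44) and Parp1 (0.76), called over all epithelial-like cells, were under 2-fold here. Rad51ap1 was lower in WB1P-Myc, at 34.8 against 65.3 CPM (−0.91, interval −1.38 to −0.41), as was Rbbp8 (−0.48, interval −0.89 to −0.05), neither past the call. Without WB1P fraction 1 they were at −0.78 (−1.29 to −0.25) and −0.43 (−0.86 to 0.03).

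Other genes of the pathways gave a mixed picture in epithelial-like cells. Of 38 further genes of homologous recombination and the Fanconi pathway, 32 had enough UMIs, and 11 were 2-fold higher and 0 lower in WB1P-Myc, with a median ratio of 0.47. Among cells with 3 or more cycle UMIs it was 4 of 27, against 14.6% of all genes, with a median ratio of 0.21 and a summed ratio of −0.07. Their sum barely differed, at 1846 CPM in WB1P against 1958 CPM in WB1P-Myc (0.08). Shfm1, which encodes a small partner of BRCA2 and the proteasome, had a large part in it, at 866 CPM in WB1P against 634 CPM in WB1P-Myc (−0.45). The highest ratios belonged to Eme1, a subunit of a structure-specific nuclease (2.76), Rpa1, of the single-strand binding complex (2.06), and Rif1, a partner of TRP53BP1 (1.75). Of 6 non-homologous end joining genes 3 were 2-fold higher, among them Prkdc (1.93) and Xrcc6 (1.43). Among mismatch repair genes it was 1 of 7, in base excision repair 2 of 12 and in nucleotide excision repair 1 of 14, with 1 lower. Over all genes 15.3% were 2-fold higher and 15.2% lower, and the shares of these last 3 lists lay near or under the first value. The replication list (0.39) and the mitosis list (0.79) also summed higher in WB1P-Myc.

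The depth limited what single cells showed. A member UMI was seen in 59.0% of WB1P epithelial-like cells, at a median of 1834 UMIs, and in 79.6% of those of WB1P-Myc, at a median of 2262 UMIs. After thinning to 600 UMIs, from which 1 WB1P-Myc cell was left out, the shares were 27.7% (24.4 to 31.2, Clopper-Pearson) and 42.6% (40.0 to 45.2). Schwann-like cells, at a median of 3378 UMIs, had a share of 78.5% before and 30.6% after thinning, nearer to WB1P than to WB1P-Myc epithelial-like cells. In macrophage-like cells of WB1P 6 members had 0 UMIs and 16 had at most 3, too few to read absence from. The median epithelial-like cell had 1 member UMI in WB1P and 2 in WB1P-Myc, and the highest counts were 10 and 13. The barcodes above 4000 genes, which were left out, had 539 CPM in WB1P and 831 CPM in WB1P-Myc, in the same order as the kept cells.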

How the data were processed

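The deposited Drop-seq tables hold raw UMI counts per gene symbol and barcode, which the authors made with dropseq-tools 1.12 according to the study's methods. The submitters' processing notes name mm10 and Scanpy. Of 16 tables, the 8 HiSeq tables gave all main values. The 8 MiSeq tables, whose titles carry the same models and sample numbers but which share few barcodes with them, served as an alternative. The series-wide merged file stayed out. Filters on cells followed the study: genes in at least 3 cells, barcodes with 200 genes on loading and then 450 to 4000, and a mitochondrial share under 20%. After scaling to 10000 and log transformation, cells were clustered with 30 components, 20 neighbours and Leiden resolution 0.3 (Python 3.11.15 with scanpy 1.11.5, igraph 0.11.9, scipy 1.17.1 and numpy 2.4.6). Clusters were named from marker lists. A gene of the comparison lists is not reported here.

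Member counts were pooled per model and class as CPM with exact Poisson 95% intervals, and ratios took exact conditional binomial intervals. No test between models was computed, since each model is 1 sample. All 32 members are named, with a log2 ratio at 50 or more UMIs over both sides, and a difference of 2-fold was called. Promoters printed were the 2 highest and 2 lowest members by the pooled cycle ratio among those matched in the set of RefSeq promoters on GRCm38.p6. The ratio, its interval and the 2-fold call were tried on simulated pooled Poisson counts, the case that the interval assumes. Clustering, fractions and cycle strata were not simulated. Alternatives were the MiSeq run, each fraction left out, other filters, resolution 0.6, edgeR 4.0.16 TMM scaling (R 4.3.3), equal weight per cell, a minimum of 10 UMIs and other strata. Alternatives that added Schwann-like cells or dropped Parp1 or Rad50 were chosen after seeing the data. The members, lists and comparisons were chosen with earlier results of these data known.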

Additional observations from a re-analysis of the deposited data

Results flagged for a closer look

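Over 87 values in 4 fractions each, Dixon's test at 95% marked 11. Its nominal rate of about 1 in 20 groups assumes independent values of equal precision. The values share UMIs and the fractions differ in cells, so the 11 cannot be set against that rate. Of the 11 marked, 8 came from WB1P fraction 1, with 65 cells. In it the members summed to 974 CPM over all cells, against 465 to 515 CPM in the other WB1P fractions, and to 986 CPM in 60 epithelial-like cells, against 518 to 569 CPM. The genes of pathway choice and end joining were at 244 CPM over all its cells and at 258 CPM in its epithelial-like cells, against 72.7 to 104 CPM elsewhere in WB1P. Parp1 was at 212 CPM (20 UMIs) and Rbbp8 at 117 CPM (11 UMIs) over all its cells, against highest values of 76.2 and 55.0 CPM in the others. Its 2 macrophage-like cells held 0 UMIs of the members and so 0 of the end sensing genes. The epithelial markers and the mitosis list were also highest in this fraction, at 14180 CPM and 6586 CPM in epithelial-like cells, and their part in these values was not tested.

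The other 3 lay in WB1P-Myc. The strand exchange genes were at 159 CPM in epithelial-like cells of fraction 2, against 134 to 137 CPM. Checkpoint kinases were at 15.8 CPM in fibroblast-like cells of fraction 3, from 4 UMIs, against 32.2 to 35.2 CPM. Rad54b was at 18.4 CPM over all cells of fraction 1, against 11.3 to 12.4 CPM.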

How the results depend on the processing

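The summed ratios of the 9 comparisons fixed for this work kept their direction under all 144 alternatives that gave a value, and 143 of these stayed within the spread over fractions. The exception was the cycle strata of WB1P-Myc epithelial-like cells, whose ratio was 0.27 with strata from the replication list alone, in place of 0.68. For fibroblast-like cells the spread was 0.76, with 2 cells in WB1P fraction 1. For the WB1P strata it was 0.77, with 7 cells without cycle UMIs in that fraction. These limits are loose beside 0.40 for the WB1P-Myc strata, so staying within them says little about stability. Over all alternatives the fibroblast-like model ratio ran from 0.12 to 0.75 and the epithelial-like ratio from 0.65 to 0.96. Leaving out 1 fraction gave log2 ratios of 0.65 to 0.73 between the models over all cells, 0.82 to 0.91 in epithelial-like, 0.25 to 0.41 in macrophage-like and 0.12 to 0.47 in fibroblast-like cells. It gave 0.26 to 0.40 (WB1P) and 0.80 to 0.89 (WB1P-Myc) for epithelial-like over macrophage-like cells and −0.50 to −0.44 for Schwann-like over epithelial-like cells. The cycle strata ranged from 1.01 to 1.24 (WB1P) and from 0.59 to 0.84 (WB1P-Myc). TMM scaling moved the ratios by at most 0.17, and adding the Schwann-like cells, chosen after seeing the data, gave 0.65 for the model ratio in epithelial-like cells.

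Among single members, 2 of the called ratios reversed, both in the MiSeq run: Fancm between the models over all cells (−0.10) and Atr in epithelial-like over macrophage-like cells of WB1P (0.34). The cause was not tested. Counts of 2-fold members moved further. In epithelial-like cells 10 of 22 were higher in WB1P-Myc (15.3% of all genes), with 7 to 15 over the alternatives. The 15 were of 32 at a minimum of 10 UMIs (20.2%). Over all cells 10 of 27 were higher (13.4%), with 14 of 32 at that minimum (17.2%) and 3 in the MiSeq run. Counts in this paragraph without a share beside them cannot be set against all genes. With a minimum of 10 UMIs the count was 2 of 18 in macrophage-like cells (13.1% of all genes), 9 of 14 in fibroblast-like cells (9.53%) and 9 of 23 for WB1P epithelial-like over macrophage-like cells (31.4%), in place of 0, 0 and 2. For the same ratio without WB1P fractions 1, 2 or 4 it was 1. The 5 of 25 members lower in Schwann-like cells (7.79% of all genes) ranged from 2 to 10, with 9 of 32 at a minimum of 10 UMIs (13.5%). The 1 higher was 0 without an upper gene limit or without WB1P-Myc fraction 4. The 2 higher in cycling WB1P cells ranged from 0 (without fraction 2) to 11 (of 21 at that minimum, 10.7% of all genes), with 1 without fraction 1, 3 or 4, and the 10 in WB1P-Myc from 3 to 16 (of 30, 16.6%). MiSeq gave no WB1P-Myc epithelial-like class and so no value for 4 comparisons, and resolution 0.6, where clusters with 633 and 226 WB1P-Myc cells went unnamed, left too few cells for the WB1P-Myc strata. No paired analysis was possible because no test between the models was made and their fractions come from separate droplet runs. Sparse members, above all in WB1P, limit every single ratio.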
